A study of Homo sapiens with 6 samples.

Results

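CD24, a small heavily glycosylated protein held in the outer membrane by a lipid anchor, was examined together with the kinases and scaffolds that act beneath it. These were the SRC family kinases SRC, YES1, FYN and LYN, their inhibitory kinase CSK, the focal adhesion kinase PTK2 (FAK), the adhesion scaffold paxillin (PXN), the caveolar coat protein CAV1, and SIGLEC10, a receptor for CD24 on immune cells. Members were chosen by name: every probe whose platform annotation gives a single gene symbol that is, in its current form, 1 of these 10. This made 18 probes of the 48103 that had a value on every array, and 10 of 20044 named genes. All samples were A375 cells, an established human melanoma line, kept for 24 h either with DMSO, the drug's solvent (3 samples), or with vemurafenib at 3 µM (3 samples), a drug that blocks mutant BRAF. Each sample of total RNA was hybridised to 1 Illumina bead array. The labels name the samples of each group unnumbered, 1 and 2 without saying whether each came from a culture of its own. The p-values therefore reflect only how far these samples scatter, and that scatter may be technical. The unnumbered and 1 samples were the most alike (r = 0.991 in DMSO and 0.989 in vemurafenib, against 0.968 to 0.971 with sample 2), and whether they are repeats of 1 culture was not tested. With these averaged, which leaves 2 samples a group, 38 of the 18747 probes kept by the detection filter passed limma's test (0.203%). CD24 was among them (limma adjusted p = 0.0388), and no gene of the 9 lists of genes around SRC, adhesion and CD24 was.

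The series title places CD24 downstream of the transcription factor SOX2 in the adaptation of melanoma cells to targeted therapy. CD24 has no part inside the cell, and its signals are known to pass through SRC family kinases gathered in lipid rafts. These kinases are held inactive by CSK, which phosphorylates their tail, and once active they work with FAK at focal adhesions, where paxillin is a shared substrate; caveolin-1 is a further SRC substrate and a scaffold of caveolae. On macrophages SIGLEC10 binds CD24 and sends an inhibitory signal. The question put to the arrays was whether the messenger RNAs of this signalling machinery moved with that of CD24. Messenger RNA says nothing about kinase activity, and in bulk RNA fewer expressing cells and less RNA per cell cannot be told apart.

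The bases before the annotated CD24 start sites are shown because CD24 was the member that rose and the series title names SOX2. They were searched on both strands for ACAAT and ACAAAG, short sequences of the kind SOX proteins bind. Neither motif contains the other, though both begin with ACAA. ACAAT occurs in 24.6% and ACAAAG in 13.7% of 35116 human windows of the same 250 bases (33.7% hold either). Sequences are from RefSeq, build GRCh38.p14, 5′ to 3′ on the minus strand that carries CD24, with matches in capitals. The first is the whole window before the start site farthest upstream in the table, at chr6:106975628-106975877. The other 2 are stretches of 30 bases around the match before the further start sites, at chr6:106975489-106975518 and chr6:106974123-106974152.
CD24 start 1: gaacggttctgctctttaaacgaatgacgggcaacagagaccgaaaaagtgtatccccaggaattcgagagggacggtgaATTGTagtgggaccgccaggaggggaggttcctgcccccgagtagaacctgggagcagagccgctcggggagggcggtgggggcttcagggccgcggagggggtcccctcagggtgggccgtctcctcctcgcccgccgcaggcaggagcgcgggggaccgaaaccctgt
CD24 start 2: ggcgctcacagaACAAAGcaagggcttcgg
CD24 start 3: cccgcgctctacACAAAGagaggcgacggt
Each of the 3 CD24 windows held 1 match, the first as the reverse complement of ACAAT and the other 2 as ACAAAG, beginning 170, 41 and 101 bases before the respective start. Of the other members in the table, FYN had a match in 3 of 4 windows and CAV1 in 2 of 3. PXN (2 windows), CSK, YES1 and SIGLEC10 (1 window each) had none. SRC, LYN and PTK2 had no window. In all, 8 of 15 windows of 7 members held either motif, against 33.7% of the human windows. Windows of the same gene are not independent, and those of CD24 starts 1 and 2 overlap in part. A match describes these letters and is not evidence of binding.

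CD24 rose 11.1-fold after 24 h of vemurafenib, the third largest rise among 11220 genes tested. On the probe ILMN_2060413 the normalised log2 intensity was 4.95, 4.98 and 5.08 in the DMSO samples unnumbered, 1 and 2, and 7.66, 9.05 and 8.73 in the vemurafenib samples in the same order. The controls lay close together near background, all treated samples lay far above them, and the unnumbered treated sample was the lowest of the treated. Means were 5 ± 0.07 and 8.48 ± 0.73 (SD, n = 3 per group), a log2 difference of 3.48 ± 0.33 (SE; 95% interval 2.71 to 4.25; limma adjusted p = 0.00197). The rise within the unnumbered, 1 and 2 pairs was 2.71, 4.08 and 3.64. Exchanging the labels of the 6 samples in every way (exact permutation test, two-sided) gave p = 0.1, and no smaller p is possible with 3 against 3.

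In untreated cells CD24 stood barely above the array background. Its intensity exceeded the mean background by 14.1, 14 and 17.3 units in the DMSO samples and by 222, 492 and 392 units in the vemurafenib samples, where the background itself had an SD of 4.54 to 5.36 units. The probe was detected (detection p under 0.01) on all 6 arrays, with detection p-values in the controls of 0.00145, 0.00125 and 5.97e-05. Because the controls were so dim, the fold depended on how background was handled: it was 4.22 with no background correction and 5.96 with an offset of 50 in place of 16, with adjusted p-values of 0.00520 and 0.00253. A second CD24 probe, ILMN_1805519, was not detected in any sample. It read 4.29 ± 0.10 under DMSO and 4.52 ± 0.13 under vemurafenib (SD over 3 samples), so no fold is given. Pseudogene copies of CD24 exist in the human genome, and whether either probe reads them was not tested.

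SOX2, a stem cell transcription factor, rose beside CD24 on both of its probes, by 3.08 ± 0.25 and 2.78 ± 0.31 (SE) on the log2 scale (limma adjusted p = 0.00123 and 0.00357). With no background correction these were 2.39 and 1.59, and with the unnumbered and 1 samples averaged the dimmer probe, ILMN_1770635, did not pass (adjusted p = 0.0889). The treated samples were not in the same order for the 2 genes: SOX2 was highest in vemurafenib sample 2 (log2 10.10 on ILMN_2177156, against 9.23 and 9.54), CD24 in vemurafenib sample 1. Of 8 ERK output genes, 7 passed as lower, a count that includes SPRY4, against 7.93% of all genes. PHLDA1 did not pass (log2 change -0.47, limma adjusted p = 0.445). The ETS factors ETV5 and ETV4 fell 9.51-fold and 10.1-fold (ETV4 detected on 2 of 3 treated arrays) and the AP-1 subunit FOSL1 14-fold (limma adjusted p = 5.51e-04, 5.51e-04 and 0.00189). The feedback inhibitor SPRY4, detected on 3 control and 0 treated arrays, was kept through its controls alone, so its call is no support. Its log2 means were 8.37 and 4.48, at least 14.2-fold lower when the control mean is set against the lowest detected signal of each treated array or the probe's own, whichever was higher. With no background correction the log2 changes of ETV5, ETV4, FOSL1 and SPRY4 were smaller, at -2.54, -1.93, -2.69 and -2.17. With the unnumbered and 1 samples averaged FOSL1 and SPRY4 did not pass (adjusted p = 0.0752 and 0.0502).

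**Figure D1:**
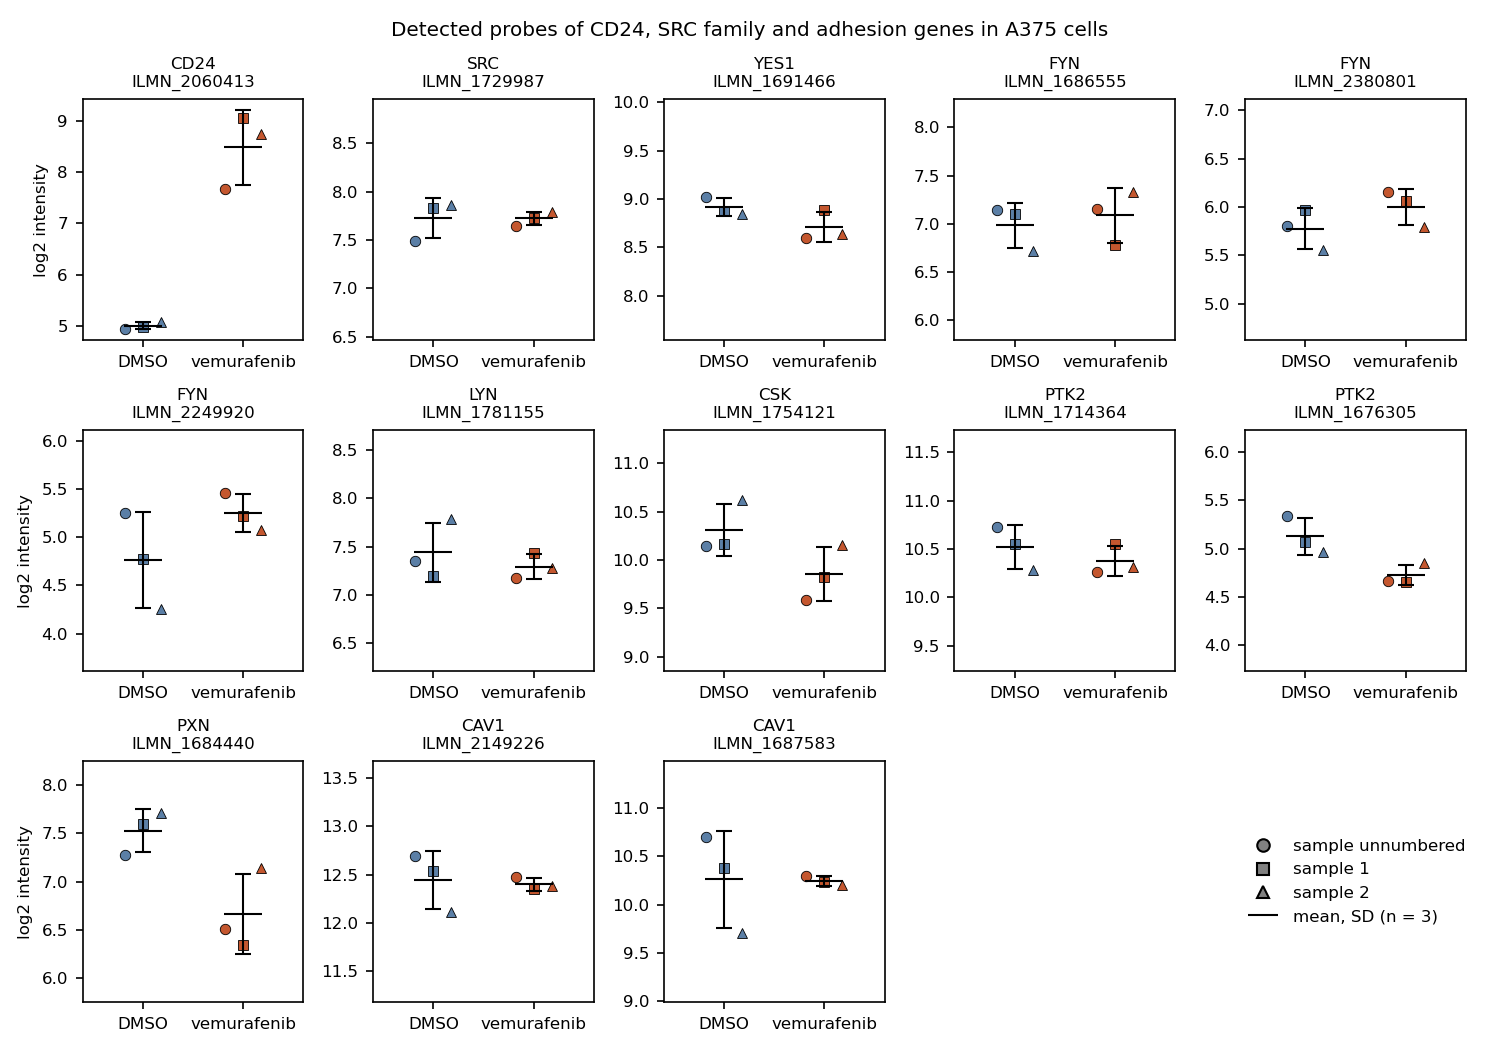
Normalised log2 intensity (vertical axes, each spanning at least 2.5 log2 units) of the 13 detected member probes in the DMSO (blue) and vemurafenib (orange) samples; symbols mark the samples unnumbered, 1 and 2, and bars the mean and SD of 3. CD24 separates widely, PXN and the dim PTK2 probe separate narrowly, and the remaining 10 probes overlap between groups.

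No other member passed the test. Of the 18 probes, 13 passed the filter (detected on at least 3 of 6 arrays), covering 9 genes, and 1 of these 13, CD24, passed limma's test at an adjusted p under 0.05, where 14.5% of all 18747 filtered probes did (7% higher and 7.47% lower). The 12 filtered probes of the 8 genes other than CD24 had log2 changes of -0.86 to 0.49 with a median of -0.10, beside a median of 0.02 over all filtered probes; 9 were below and 3 above 0. For 10 of these 12 the 95% interval lay wholly within a 1-unit log2 change in either direction. The groups did not overlap for 3 of the 13 probes (CD24, PXN and 1 of 2 PTK2 probes), against 36.6% of all filtered probes.

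SRC, the founding kinase of the family, had nearly equal means in both groups. Its log2 intensity on ILMN_1729987 was 7.49, 7.83 and 7.86 in the DMSO samples and 7.65, 7.73 and 7.79 in the vemurafenib samples. The treated values fell inside the control range, and the log2 difference was 0.00 ± 0.17 (SE; 95% interval -0.39 to 0.38; limma adjusted p = 0.996). That interval corresponds to a fold of 0.764 to 1.31. The other 2 SRC probes, ILMN_1778253 and ILMN_1685898, were detected on 0 arrays, so SRC rests on 1 probe.

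YES1, a close relative of SRC, measured 9.02, 8.88 and 8.85 in DMSO and 8.60, 8.89 and 8.64 in vemurafenib. Vemurafenib sample 1 lay among the controls and the other treated samples lay below them, a difference of -0.21 ± 0.16 (SE; 95% interval -0.58 to 0.17; limma adjusted p = 0.422). LYN, prominent in blood cells and also found in melanoma, measured 7.35, 7.19 and 7.78 in DMSO and 7.17, 7.43 and 7.28 in vemurafenib. The groups overlapped, DMSO sample 2 was the highest of all, and the difference was -0.15 ± 0.20 (SE; 95% interval -0.60 to 0.31; limma adjusted p = 0.656).

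FYN, a broadly expressed family member, had 4 probes, of which 3 passed the filter and none passed the test. On the brightest, ILMN_1686555, the log2 intensities were 7.14, 7.10 and 6.72 in DMSO and 7.15, 6.78 and 7.33 in vemurafenib, and the groups overlapped (0.10 ± 0.21, SE; 95% interval -0.38 to 0.57; limma adjusted p = 0.790). ILMN_2380801 was higher in the treated sample of every pair, by 0.35, 0.08 and 0.24, yet the groups overlapped and the fitted difference was 0.23 ± 0.18 (SE; adjusted p = 0.443). ILMN_2249920 measured 5.25, 4.77 and 4.26 in DMSO and 5.46, 5.22 and 5.07 in vemurafenib. It was also higher in every treated sample of a pair, but was detected on 1 of 3 control arrays, so its difference of 0.49 ± 0.26 (SE; 95% interval -0.11 to 1.10; limma adjusted p = 0.241) is approximate. The fourth, ILMN_1781207, was detected on 1 of 6 arrays.

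CSK, the kinase that restrains the family, was lower in each treated sample than in the control of the same number. Its log2 intensity was 10.14, 10.17 and 10.62 in DMSO and 9.59, 9.82 and 10.15 in vemurafenib. The samples numbered 2 were the highest of each group, and vemurafenib 2 reached the level of the lowest control, so the groups overlapped by a narrow margin. The differences within pairs were close together at -0.55, -0.36 and -0.47. The fitted difference of -0.46 ± 0.21 (SE; 95% interval -0.95 to 0.03) missed the threshold (limma adjusted p = 0.182; adjusted p = 0.0564 with the replicate number as a block).

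PTK2, the focal adhesion kinase, was measured by a bright and a dim probe. The bright one, ILMN_1714364, read 10.73, 10.55 and 10.28 in DMSO and 10.26, 10.55 and 10.31 in vemurafenib. The groups overlapped and the difference was -0.15 ± 0.18 (SE; 95% interval -0.57 to 0.28; limma adjusted p = 0.626). The dim one, ILMN_1676305, read 5.34, 5.07 and 4.97 in DMSO and 4.67, 4.66 and 4.85 in vemurafenib. All treated values lay below all controls, but the probe was detected on 2 of 3 treated arrays and its approximate difference of -0.40 ± 0.17 (SE) did not pass (limma adjusted p = 0.147). Without both samples numbered 2 it fell by 0.54 (limma adjusted p = 0.0491), where 29.4% of all filtered probes passed. Its size depended on how background was handled. It was -0.13 with no background correction and -0.19 with an offset of 50 (limma adjusted p = 0.366 and 0.294).

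PXN, the paxillin scaffold that FAK and SRC phosphorylate, was the member with the largest difference after CD24, and it lay at the threshold. Its log2 intensity was 7.28, 7.60 and 7.71 in DMSO and 6.51, 6.35 and 7.14 in vemurafenib. All treated samples lay below all controls, with vemurafenib 2 nearest to them, and the differences within the unnumbered, 1 and 2 pairs were -0.77, -1.24 and -0.57. Means were 7.53 ± 0.22 and 6.67 ± 0.42 (SD, n = 3 per group), a difference of -0.86 ± 0.24 (SE; 95% interval -1.42 to -0.31; limma adjusted p = 0.0506). With the replicate number as a block it passed (adjusted p = 0.0158), as did 26.7% of all filtered probes in that fit. It passed under 8 of 16 alternatives in all, with log2 changes of -1.10 to -0.56 and adjusted p-values of 0.00702 to 0.268. Leaving out vemurafenib 2 gave -1.10 (adjusted p = 0.0104), and leaving out any of the other 5 samples singly gave adjusted p-values of 0.0861 to 0.170.

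CAV1, the caveolar coat protein, was bright on both probes, and neither passed the test. ILMN_2149226 read 12.69, 12.54 and 12.11 in DMSO and 12.48, 12.35 and 12.38 in vemurafenib, and ILMN_1687583 read 10.70, 10.38 and 9.71 against 10.30, 10.24 and 10.20. On both probes DMSO sample 2 was the lowest of all samples and the treated values lay within the control range. The differences were -0.05 ± 0.19 and -0.02 ± 0.25 (SE; 95% intervals -0.49 to 0.39 and -0.60 to 0.57; limma adjusted p = 0.892 and 0.975). SIGLEC10, the immune receptor for CD24, was detected on 0 of 6 arrays (log2 4.18 ± 0.06 in DMSO and 4.15 ± 0.05 in vemurafenib, SD, n = 3 per group), and the leukocyte antigen PTPRC, the B cell marker MS4A1 and the T cell marker CD3E did not pass the filter either. Of 10 leukocyte markers CD14, LYZ, FCGR3A and CD68 passed it, and the summed signal of the list above background was 910 to 1570 units in DMSO and 1220 to 2120 units in vemurafenib. Most of that sum was CD68, a lysosomal protein, whose log2 intensity was 9.51 ± 0.86 and 10.20 ± 0.40 (SD, n = 3 per group; limma adjusted p = 0.297; 0.0471 with the replicate block). CD14, LYZ and FCGR3A lay near background, with group means of 4.94 to 5.33.

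**Figure D2:**
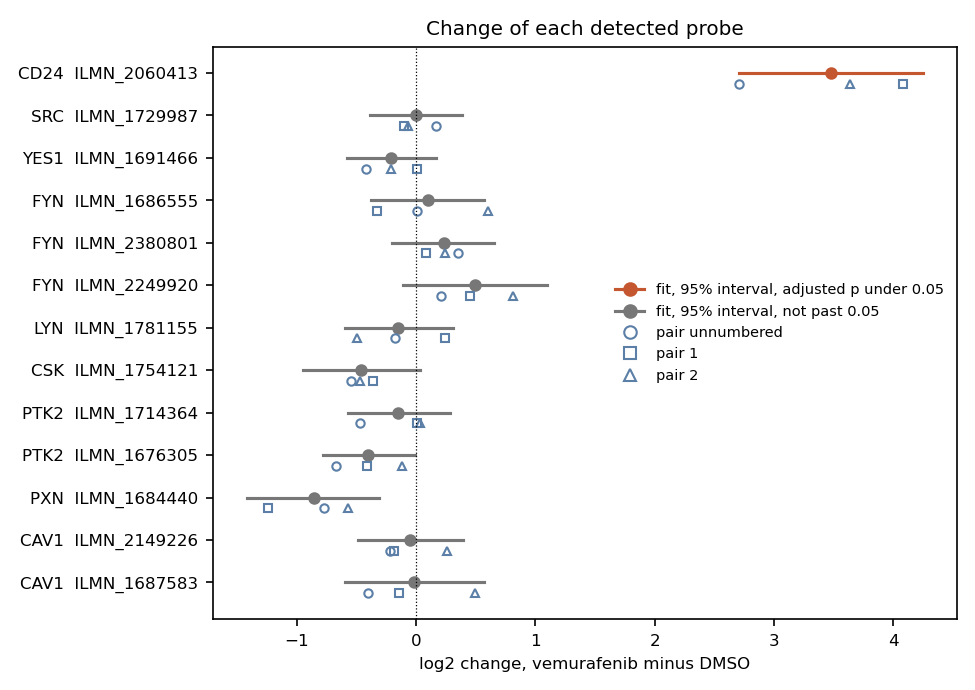
Log2 change of the 13 detected member probes (horizontal axis, vemurafenib minus DMSO) with limma's 95% interval; open symbols are the differences within the pairs unnumbered, 1 and 2. CD24 stands at 3.48, PXN at -0.86 lies below 0 without passing the test, and the intervals of SRC and CAV1 straddle 0.

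The genes around the members were described through 9 lists chosen by function. They hold SRC regulators and substrates, adhesion and caveolar genes, Siglecs and CD24 partners, phagocytosis signals and surface markers. Over these lists 67 of 116 genes could be tested. Of those tested 3 rose and 4 fell (10.4%, against 16% of all 11220 genes, 8.07% higher and 7.93% lower). The median log2 change of those tested was -0.05, beside 0.05 for all genes. With the replicate number as a block 4 rose and 9 fell (19.4%, against 29.8% of all genes). The 6 genes gained with the block were TNS2, which was higher, and GIT2, VASP, PACSIN2, HMGB1 and ITGA6, which were lower. The count depended on single samples, as did the share of all filtered probes that passed. Without vemurafenib 2, 5 rose and 8 fell, where 21.4% of all filtered probes passed. Without DMSO unnumbered, vemurafenib unnumbered or vemurafenib 1, 1 rose, where 3.19%, 2.38% and 3.08% of all filtered probes passed.

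Among 8 tested regulators of SRC, 1 rose, 1 fell and 6 did not pass. CBLB, a ubiquitin ligase that marks activated tyrosine kinases for degradation, rose 2.56-fold, from 6.64, 6.81 and 6.68 to 8.01, 8.35 and 7.83 on the log2 scale (limma adjusted p = 0.00640). PTPN12, a tyrosine phosphatase of the SRC substrate BCAR1, fell 1.93-fold, from 9.72, 9.70 and 9.81 to 8.85, 8.79 and 8.77 (limma adjusted p = 0.00967). Both groups of values were tight and did not overlap, and both calls held without each sample in turn (adjusted p up to 0.0368 and 0.0478). With no background correction CBLB rose 1.93-fold. The log2 changes of CBLB and PTPN12 were then 0.95 and -0.85, against 1.35 and -0.95 as reported, and both passed (limma adjusted p = 0.00533 and 0.0023).

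Among 12 tested FAK partners and adhesion adaptors, BCAR3, an adaptor bound to the SRC substrate BCAR1, fell 2.23-fold from 10.08, 10.18 and 10.41 to 8.96, 8.96 and 9.28 (limma adjusted p = 0.00946), and 11 did not pass. Without vemurafenib unnumbered the adjusted p of BCAR3 was 0.0513. Among 18 tested links from integrins to actin, 1 rose, 2 fell and 15 did not pass. The actin crosslinker ACTN1 fell 2.46-fold and the kindlin FERMT1, an integrin activator, 2.14-fold, while the tensin TNS3 rose 2.09-fold (limma adjusted p = 0.00486, 0.0107 and 0.0179). The falls of ACTN1 and FERMT1 held without each sample in turn (adjusted p up to 0.0302 and 0.0466). TNS3 lost its call without DMSO unnumbered, vemurafenib unnumbered or vemurafenib 1 (0.0605, 0.0599 and 0.0746). With no background correction BCAR3, ACTN1, FERMT1 and TNS3 passed with log2 changes of -1.06, -1.16, -0.73 and 1.01. As reported these were -1.16, -1.30, -1.10 and 1.07.

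Among 9 tested SRC substrates, the transcription factor STAT3 rose 1.97-fold, from 7.76, 7.78 and 7.83 to 9.14, 8.88 and 8.29 (limma adjusted p = 0.0313), and 8 did not pass. Its other 2 probes differed by 0.80 and 0.68 without passing (adjusted p = 0.0515 and 0.0768). With the replicate block both passed (adjusted p = 0.0146 and 0.0418). All 3 STAT3 probes, which read the same samples, had treated samples above every control, and the groups did not overlap for 36.6% of all filtered probes. The call of STAT3 held in 1 of 6 fits with a sample left out, the one without vemurafenib 2, with adjusted p-values up to 0.113 in the others. Of the other SRC family and related kinases 1 of 7 could be tested, PTK6 (log2 change 0.16, adjusted p = 0.669). PTK6 lay near background (log2 means 4.67 and 4.83) and was detected on 1 control and 3 treated arrays, so its difference is approximate.

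No gene of the remaining 4 lists passed. In caveolae and lipid rafts (8 tested, median log2 change 0.17), the caveolar coat genes CAVIN1 and CAVIN3 had differences of -0.05 and 0.15 (limma adjusted p = 0.900 and 0.607). Of the 18 genes listed as Siglecs or CD24 partners 3 could be tested. The Siglecs were listed as a family, and whether each binds CD24 was not tested. HMGB1, a nuclear protein that CD24 can bind outside cells, measured 7.51 ± 0.73 and 6.31 ± 0.57 (SD, n = 3 per group), with both samples numbered 2 the highest of their group (adjusted p = 0.0871; 0.00355 with the replicate block), and the adhesion protein L1CAM differed by 0.34 (adjusted p = 0.548). Of 5 tested phagocytosis signals, B2M and LILRB1 differed by 0.37 and -0.18 (adjusted p = 0.303 and 0.532). The LILRB1 probe was bright, with log2 means of 11.43 in DMSO and 11.25 in vemurafenib, and whether it reads LILRB1 alone was not tested. Of 3 tested surface markers of tumour-initiating cells, the hyaluronan receptor CD44 differed by 0.16 (adjusted p = 0.507) and the integrin ITGA6 by -1.03 (adjusted p = 0.0759; 0.0198 with the replicate block).

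**Figure D3:**
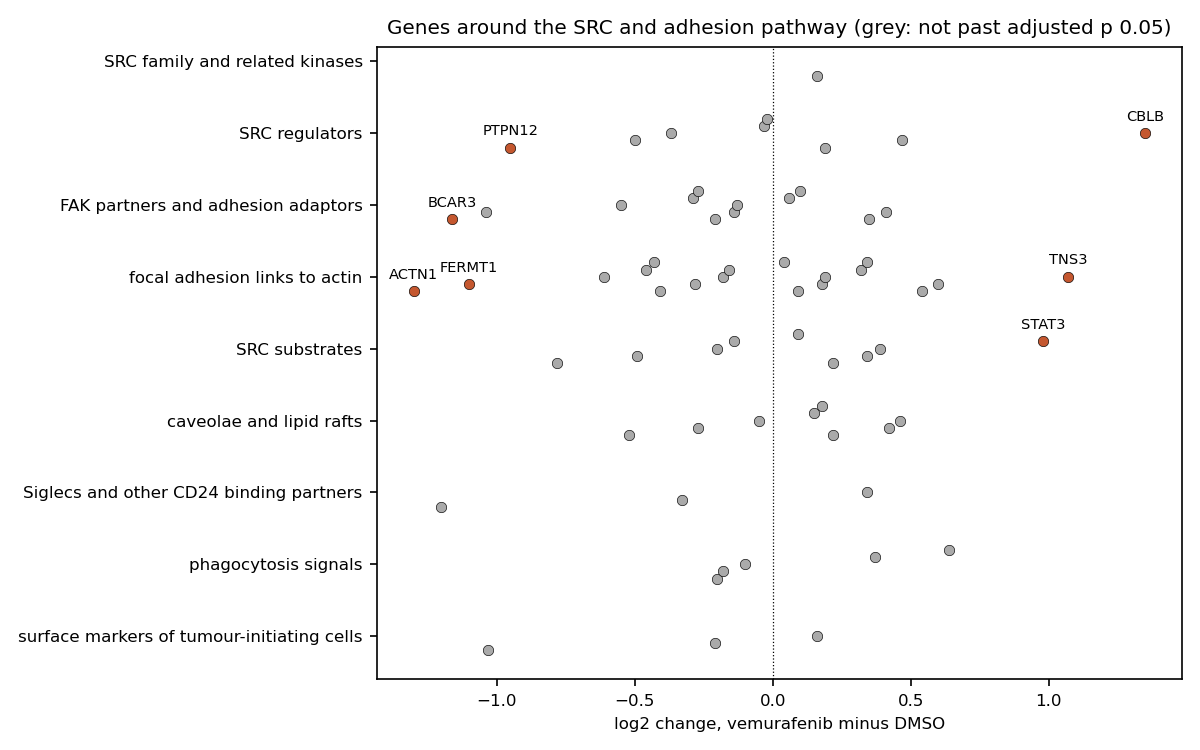
Log2 change of each tested gene of 9 lists around SRC signalling, adhesion and CD24 (horizontal axis, vemurafenib minus DMSO); orange points passed an adjusted p under 0.05 and are named, grey points did not. CBLB, TNS3 and STAT3 lie to the right, ACTN1, BCAR3, FERMT1 and PTPN12 to the left, and the lists as wholes scatter around 0.

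The genes whose profile over the 6 arrays was most like that of CD24 were CA2, a carbonic anhydrase, ADD3, an adducin of the membrane skeleton, CYP4F11, a fatty acid hydroxylase, GPER1, a G protein-coupled oestrogen receptor, and KANSL3, a subunit of a histone acetyltransferase complex. Their Pearson correlations with CD24 were 0.998, 0.997, 0.996, 0.995 and 0.993. These are a description over 6 arrays in 2 groups, and 175 of 11082 genes reached 0.95. ADD3 read 9.55, 9.59 and 9.60 in DMSO and 10.72, 11.07 and 11.05 in vemurafenib, with the same low unnumbered treated sample as CD24 (log2 change 1.36 ± 0.16, SE). CA2, CYP4F11 and GPER1 were detected on 0 control and 3 treated arrays, and their treated means were at least 2.04-fold, 2.36-fold and 3.58-fold higher than that floor, while KANSL3 differed by 0.48 on the log2 scale. No test is given for these 5 genes, since they were chosen for their likeness to CD24, which itself separates the groups.

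**Figure D4:**
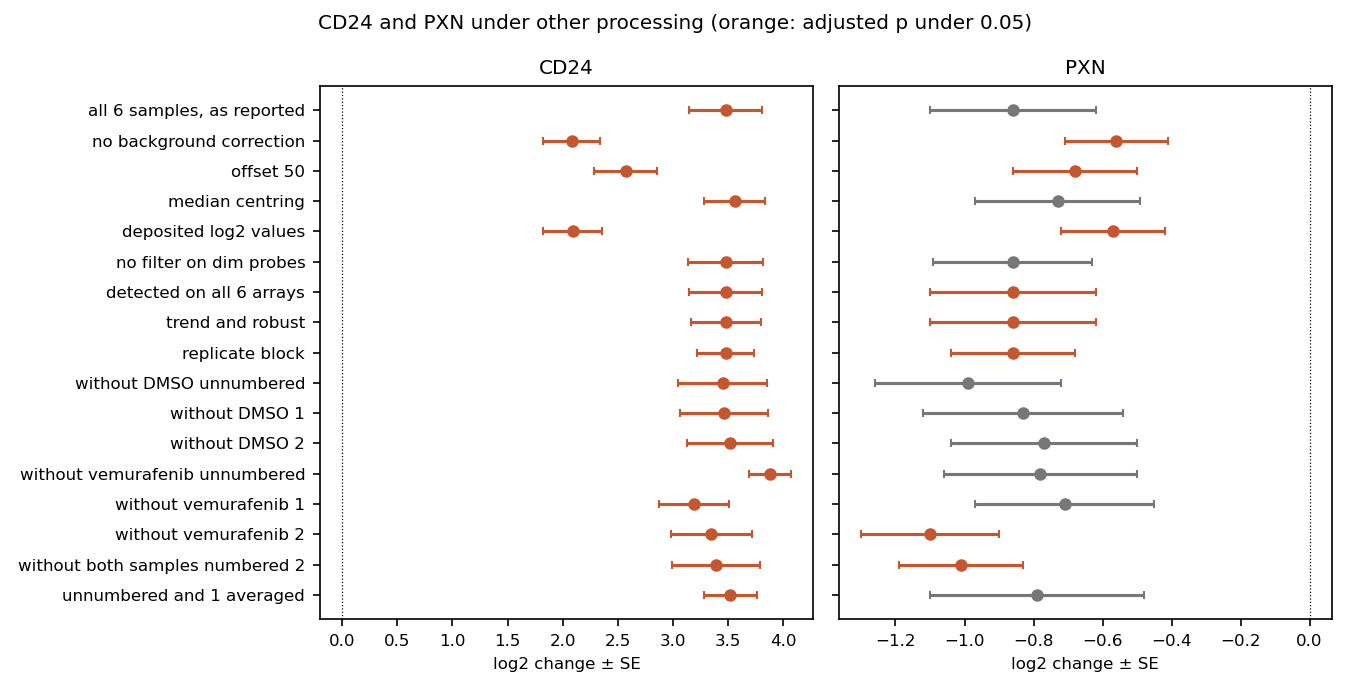
Log2 change with its standard error (horizontal axes) of CD24 and PXN as reported and under each of 16 alternatives; orange marks an adjusted p under 0.05. CD24 passed in all, between 2.08 and 3.88, and PXN in 8, between -1.10 and -0.56.

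The arrays were alike in median intensity (91 to 94.5 units). Between 18370 and 20044 probes were detected per array (38.2% to 41.7%), and 6 arrays limit the precision of every value. Every vemurafenib array detected more probes than any DMSO array. The counts were 20044, 19220 and 18666 against 18628, 18558 and 18370 (unnumbered, 1 and 2 in order). The part of this in probes detected only under treatment was not tested. Both samples numbered 2 stood apart from the rest of their group (correlations of 0.968 to 0.971, against 0.989 and 0.991 between the unnumbered and 1 samples). Of 8 melanoma markers, SOX10, MITF and S100A1 were detected on every array, while PMEL, MLANA, TYR and S100B did not pass the filter. MITF, the master regulator of melanocytes, had a log2 change of 0.75 and passed (limma adjusted p = 0.0334), and SOX10 and S100A1 did not pass (0.390 and 0.658). With single samples left out, 1 melanoma marker passed without vemurafenib 2 and 0 in every other such fit. The call of MITF therefore depended on single samples. Of 5 fibroblast markers, LUM, DCN and COL1A1 passed the filter. LUM had treated samples above every control, and the groups did not overlap for 36.6% of all filtered probes. The matrix proteoglycan LUM read 5.26 ± 0.40 in DMSO and 6.43 ± 0.71 in vemurafenib (SD, n = 3 per group; limma adjusted p = 0.0693; 0.00867 with the replicate block). DCN and COL1A1 were detected on 0 control and 3 treated arrays. Their log2 means were 4.44 and 5.44 for DCN and 4.42 and 5.05 for COL1A1. Both were kept through the treated group alone, so their separation from the controls is no support. COL3A1 and PDGFRA did not pass the filter. The summed signal of the list above background was 23.9 to 42.6 units in DMSO and 86.8 to 283 units in vemurafenib, and its part in the results above was not tested. Of 5 epithelial markers 1, KRT14, passed the filter, while CDH1 and EPCAM did not.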

How the data were processed

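Gene expression was read on Illumina bead arrays from biotinylated copies of total RNA, as the labels' protocols state. Deposited by the authors were a linear signal intensity and a detection p-value for each of 48107 probes and 6 arrays, with no background subtraction or normalization, as the values show. They also deposited log2 values, which differ from log2 quantile-normalized intensities by at most 0.048; their making and the scanner software were not stated in what was used here.

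Probes with a missing value (4) were left out. Background was corrected by limma 3.58.1 (R 4.3.3) with normexp, its level inferred from the detection p-values, an offset of 16 was added, and arrays were quantile normalized and taken to log2. Probes detected at p under 0.01 on at least 3 of 6 arrays were kept (18747 probes). Genes in lists were represented by their brightest kept probe (11220 genes). Symbols came from GEO's platform annotation and were updated to the current RefSeq symbol of the same gene identifier where there was one. Probes annotated with several symbols were given no gene, so some listed genes count as absent from the array. Groups were compared with limma (lmFit, eBayes) without covariates, with Benjamini-Hochberg adjustment over all kept probes and a threshold of 0.05. The code was tested on simulated data. Deviations from the group means correlated within each same-numbered pair (0.19, 0.35 and 0.52 for unnumbered, 1 and 2). Correlations between samples of different number were not compared, so these values do not show that the numbers pair the samples. The replicate block treats same-numbered samples as pairs, and its results are given where they change a call of a gene described.

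Named genes are the members, SOX2, up to 4 passing genes with the largest change from each list (or up to 2 of the brightest where none passed), and the 5 genes most correlated with CD24. Marker genes and probes named beside them are outside this rule. Members and lists were chosen with earlier results of these data known.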

Additional observations from a re-analysis of the deposited data

How the results depend on the processing

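CD24 kept its direction and call under all 16 alternatives, with log2 changes of 2.08 to 3.88 (3.19 to 3.88 with single samples left out); the smaller values came with no background correction (2.08), the deposited log2 values (2.09) and an offset of 50 (2.57). With the replicate block its change was 3.48 (adjusted p = 0.00126). The block changed the calls of PXN, of 2 STAT3 probes, of 6 list genes and of the markers LUM, COL1A1 and CD68. It changed no other call among the members, SOX2 and the lists. COL1A1 went from an adjusted p of 0.0697 to 0.0274, which is no support, since it was kept through the treated group alone. Member probes passing as lower numbered 0 as reported and 1, PXN, with no background correction, an offset of 50, the deposited log2 values, probes detected on all 6 arrays, the trend and robust options or the replicate block. They numbered 2 without both samples numbered 2, and 0 to 1 with single samples left out. Member probes passing as higher numbered 1 throughout, CD24. Of 174 fits of the 11 probes of SRC, YES1, FYN, LYN, CSK, PTK2 and CAV1 under the alternatives, 1 passed, the dim PTK2 probe. Genes of the 9 lists passing as higher numbered 3 as reported, 5 without both samples numbered 2, 0 with the unnumbered and 1 samples averaged, and 1 to 5 with single samples left out. Those passing as lower numbered 4, 9 with the replicate block, 11 without both samples numbered 2, 0 with the averaged samples, and 3 to 8 with single samples left out. Averaging leaves 2 samples a group, where 38 of all 18747 probes passed, and without a filter 1390 of 48103 did, against 2712 as reported. The share of all kept probes that passed was 14.5% as reported and 26.7% with the replicate block. It was 29.4% without both samples numbered 2 and 2.38% to 21.4% with single samples left out. Signal near background limits CD24 in untreated cells, 2 FYN probes and 1 PTK2 probe; SIGLEC10, 2 SRC probes and 1 CD24 probe gave no measurement.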
